A study of Saccharum hybrid cultivar with 68 samples.

Results

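Sugarcane leaf and stem were profiled by degradome, small RNA and mRNA sequencing, and 37 unigenes of the degradome table were paired with the miRNA entry miR2102-x. A unigene is a transcript assembled from the reads. The 37 were taken as all unigenes in rows of miR2102-x, leaving out any also paired with miR2673-z, of which there were 0. They were 37 of 752 unigenes in the degradome table and of 100182 unigenes in the mRNA table. The plants were hybrid cultivars of 2 genotypes, and ROC22's sucrose content contrasts with GT86-887's in the series description, which does not say which holds more. The mRNA libraries covered 12 groups of 3: ROC22's or GT86-887's leaf or stem, at the early, middle or late stage of sucrose accumulation. The 24 small RNA libraries covered 8 groups of 3, at the early and late stages. The 8 degradome libraries were single, 1 first and 1 second library for each genotype and tissue. The first libraries carried an early title code and an early label, while the second carried a late title code and a middle label, so first and second were not compared as stages. Treatment, plant age and the number of plants behind a library are not in the labels, nor is whether the 3 libraries of each group are separate plants. A p-value below thus reflects the variation among the libraries alone, part or all of which may be technical. The files give the unigenes no gene name, function or genome position, so each is described by its identifier and its values, and the tissue labels could not be checked against marker genes.

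A plant miRNA is a short RNA that guides an Argonaute protein to a messenger RNA with near-complete complementarity. Argonaute then cuts the messenger opposite the middle of the miRNA, and the downstream piece keeps an uncapped 5′ phosphate. Degradome sequencing captures such uncapped 5′ ends, so a tag is taken here as a sequenced fragment end that the authors assigned to a miRNA and its paired unigene. Whether 1 tag is 1 read or 1 distinct sequence is not in the labels or headers. Other forms of RNA decay leave uncapped ends as well.

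The sequences are shown because miR2102-x is built largely of a repeated GCC triplet, and because some of its unigenes were also paired with miR11418-z or miR172-y. Letters are as deposited, with T in place of U, and the seed (bases 2 to 8 from the 5′ end) is in capitals.
miR2102-x: gGCAAGCCgccgccgccgtc
miR11418-z: cCCACCGCcgccgccgccgcca
miR172-y: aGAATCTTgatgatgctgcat
miR2673-z: tCCTCTTCctcctcccct
The last sequence, miR2673-z, is the entry with the most pairs, 88, and serves for comparison.

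miR2102-x had 20 bases, of which 85.0% were G or C, against a median of 50.0% over the 844 entries of the small RNA table. GC content was higher in 2 entries. Bases 6 to 17 were 4 GCC triplets in a row, and such a run occurred in 2 of the 844 entries, miR2102-x and miR11418-z. The seed of miR2102-x was found in 1 entry, its own, so no other entry of the table would be grouped with it by seed. miR11418-z had the highest GC content of the table, 90.9%. miR172-y, of a family known in plants for targeting APETALA2-like transcription factors, was at 38.1%.

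miR2102-x itself was counted 3 times in the 24 small RNA libraries, and all 3 counts came from GT86-887's leaf early replicate 1, where they made 3.81 CPM (counts scaled to the library total). The other 23 libraries had 0 counts, which at their depths of 183654 to 1632186 counts allows levels of up to 1.84 to 16.3 CPM (3 counts of the total, counting error only). In 15 of the 23 that limit lay above 3.81 CPM. The entry failed the filter on low counts in every small RNA fit, so tissue, genotype and stage differences were not tested for it. It was not alone in this: 213 of the 844 entries, or 25.2%, had 3 or fewer counts. miR2673-z had 2 counts, both in ROC22 leaf late replicate 1.

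For miR2102-x, few counts stood beside many pairs. Of the 871 pairs in the degradome table, 4.25% were with miR2102-x, and of the 363 miRNA entries in it 1, miR2673-z, had more pairs. The third had 22, and the median entry had 1. Of the 73 degradome entries counted in exactly 1 small RNA library, 59 had 1 or 2 pairs. miR172-y had 5874 counts in all 24 small RNA libraries and 11 pairs.

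Most of the 37 unigenes had a tag in 1 and the same library. In GT86-887's first leaf library 32 of the 37, or 86.5%, had a tag, and 30 of these had exactly 1. In the other libraries 7 had a tag in ROC22 leaf first, 6 in ROC22 leaf second, 7 in GT86-887's leaf second, 3 each in ROC22 stem first, ROC22 stem second and GT86-887's stem first, and 0 in GT86-887's stem second. Among the 746 pairs with neither miR2102-x nor miR2673-z, 40.8% had a tag in GT86-887's leaf first and 48.0% in ROC22 leaf first. The small RNA library in which miR2102-x was counted shares its title code with GT86-887's first leaf degradome library. The number of reads in each degradome library is not in the labels or files used, and with 1 library per condition the tags carry no replicate check and were not tested.

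**Figure D1:**
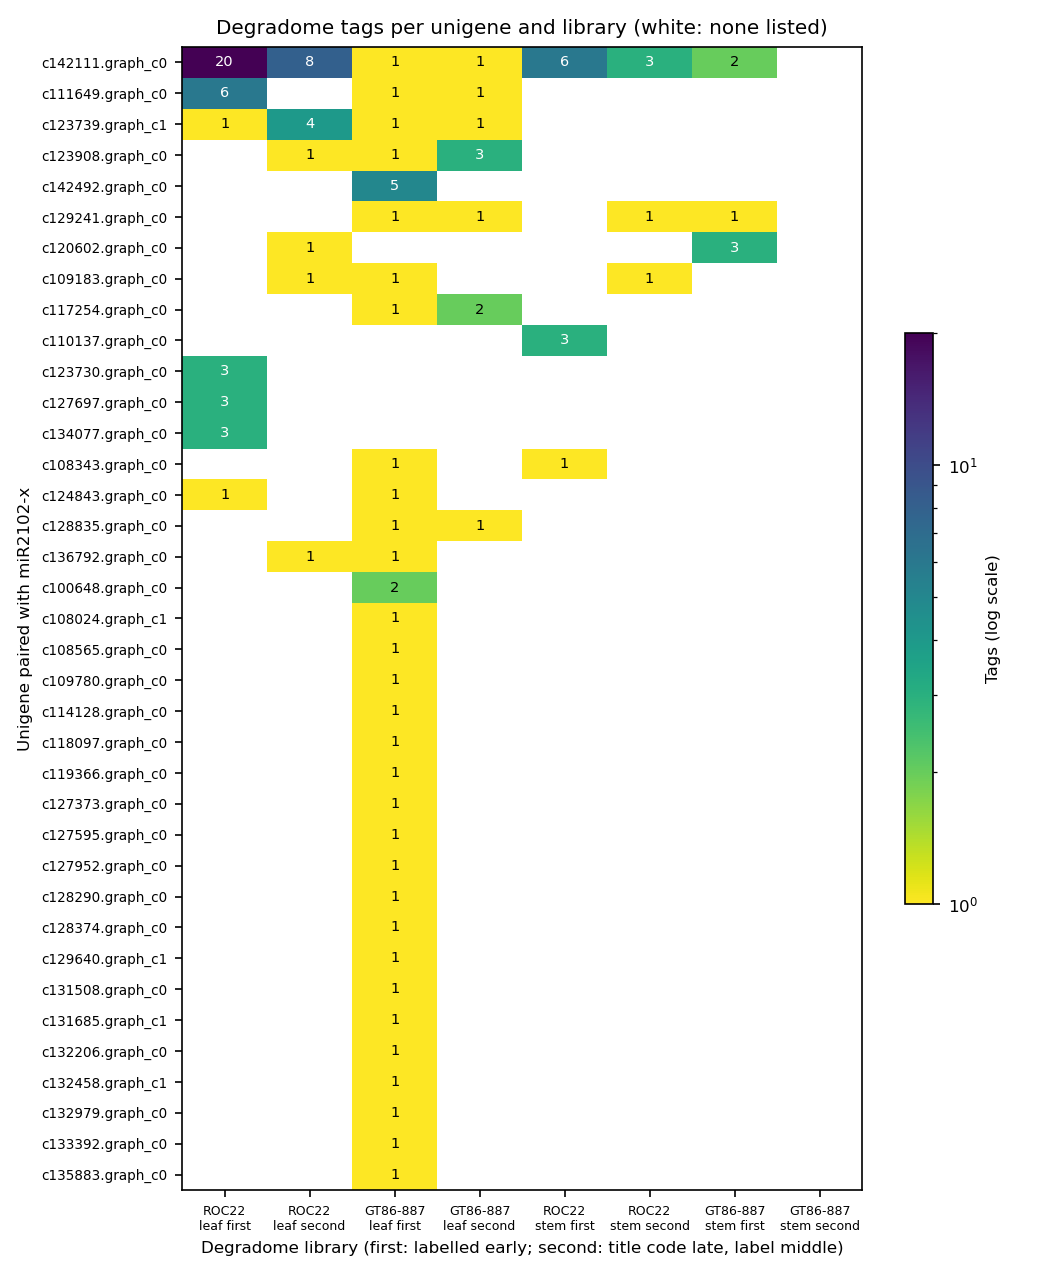
Degradome tags of each of the 37 unigenes (rows) in each of the 8 degradome libraries (columns), with the number of tags in the cell, colour on a log scale and white where none is listed. The column of GT86-887's first leaf library is filled for 32 unigenes, mostly with 1 tag, and c142111.graph_c0 at the top holds tags in 7 libraries.

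The tags were few per pair. Over the 8 libraries the 37 unigenes had 121 tags, and 45 of their 61 filled cells, or 73.8%, held a single tag, against 31.8% of the 2279 filled cells of all other pairs. The median pair with miR2102-x had 1 tag in total and the median of the other 834 pairs had 4. For 19 unigenes the whole record was 1 tag in GT86-887's first leaf library, and 21 had tags in that library alone. Tags were seen in exactly 1 library for 25 of the 37 (67.6%), against 39.4% of the other 834 pairs. By tissue, 31 had tags in leaf alone, 1 in stem alone (c110137.graph_c0, 3 tags in ROC22 stem first) and 5 in both. The share of other pairs with tags in leaf alone is not given here. Leaf libraries held tags for more of the other pairs too. Of the 746 pairs with neither miR2102-x nor miR2673-z, 36.9% to 48.0% had a tag in a given leaf library and 22.0% to 29.5% in a given stem library.

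A high share of pairs in the library with the most pairs of an entry was not particular to miR2102-x. Over the 9 entries with 10 or more pairs, the library that held tags for the most pairs of an entry did so for 71.4% to 90.9% of them, among them 90.9% for miR172-y in ROC22 leaf second. That library differed between entries. Of the 88 pairs of miR2673-z, 74 (84.1%) had a tag in GT86-887's stem second, 71 of them exactly 1, whereas 0 of the 37 unigenes of miR2102-x had one there. Outside the library with the most pairs, the share with a tag was 21.6% to 47.7% for miR2673-z and 0% to 18.9% for miR2102-x. For the remaining entries these shares are not given here, so how far their pairs keep to 1 library was not compared. The library that shares a title code with the single small RNA library holding miR2673-z is ROC22 leaf second, where 29.5% of its pairs had a tag. Over the 23 degradome entries counted in exactly 1 small RNA library that has a degradome library of the same title code, 81 of 178 pairs had a tag in that library, and without miR2102-x 49 of 141.

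c142111.graph_c0 had the most tags, 41, or 33.9% of those on the 37 unigenes. It had 20 in ROC22 leaf first, 8 in ROC22 leaf second, 6 in ROC22 stem first, 3 in ROC22 stem second, 2 in GT86-887's stem first, and 1 each in GT86-887's leaf first and second. Both ROC22 leaf libraries thus held more of its tags than any of GT86-887's libraries. c123739.graph_c1 had 7 tags, all in leaf: 4 in ROC22 leaf second and 1 in each of the other leaf libraries. c129241.graph_c0 had 1 tag in each of 4 libraries, GT86-887's leaf first and second, ROC22 stem second and GT86-887's stem first. These 3 were the unigenes with tags in 4 or more libraries.

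A further 3 unigenes completed the 5 with the most tags. c111649.graph_c0 had 6 of its 8 tags in ROC22 leaf first and 1 in each of GT86-887's leaf libraries. c123908.graph_c0 had 3 of its 5 tags in GT86-887's leaf second, with 1 in GT86-887's first leaf library and 1 in ROC22 leaf second. c142492.graph_c0 had all 5 of its tags in GT86-887's first leaf library, the highest number of any of the 37 there.

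The 5 unigenes without a tag in GT86-887's first leaf library are listed here because they are few. c123730.graph_c0, c127697.graph_c0 and c134077.graph_c0 had 3 tags each in ROC22 leaf first, c110137.graph_c0 had 3 in ROC22 stem first, and c120602.graph_c0 had 1 in ROC22 leaf second and 3 in GT86-887's stem first. Their mRNA in GT86-887's leaf early library of the same title code was low, at 0.631 to 4.99 CPM with a median of 1.95 CPM. The 30 with a single tag there spanned 0.803 to 4089 CPM, with a median of 31.8 CPM, so a single tag was listed for unigenes at very different mRNA levels and the ranges of both sets overlapped. c100648.graph_c0, with 2 tags there, was at 0.459 CPM in the same mRNA library, in CPM below all 5 without a tag. CPM is not scaled to unigene length, and in FPKM the order differed. At 1.47 FPKM it lay above c120602.graph_c0 (0.53) and c134077.graph_c0 (0.87). It lay below c123730.graph_c0 (1.69), c127697.graph_c0 (4.02) and c110137.graph_c0 (5.64). c142492.graph_c0, with 5 tags there, was below the median of 1.95 CPM of those without a tag. In FPKM it was at 1.69, the same as c123730.graph_c0. Whether the mRNA level bears on which unigenes lack a tag was not tested.

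Pairs with a second miRNA entry were seen for 3 of the 37 unigenes (8.11%), against 75 of the other 715 degradome unigenes (10.5%). c142111.graph_c0 was also paired with miR11418-z, the other entry with the GCC run, through 44 tags: 10 and 15 in ROC22 leaf first and second, 7 and 1 in GT86-887's leaf first and second, 7 in ROC22 stem second, and 2 in each of GT86-887's stem libraries. c129241.graph_c0 was paired with miR172-y through 12 tags, 3 each in ROC22 leaf second, GT86-887's leaf first and ROC22 stem second, 2 in ROC22 leaf first and 1 in GT86-887's leaf second. c128374.graph_c0 was paired with another entry, which carries no miR family name, through 2 tags in each first leaf library. On each of the 3 the second entry had more tags than miR2102-x, 44 against 41 on c142111.graph_c0, 12 against 4 on c129241.graph_c0 and 4 against 1 on c128374.graph_c0.

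**Figure D2:**
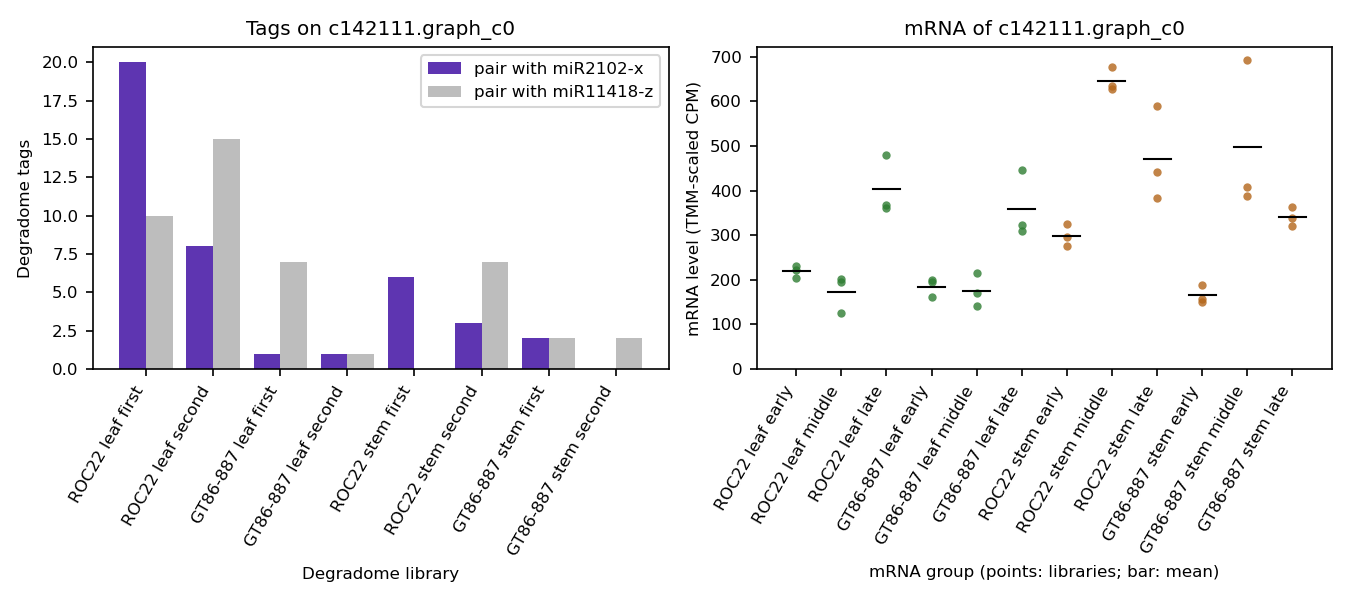
Left, degradome tags on c142111.graph_c0 in each of the 8 libraries for its pair with miR2102-x (purple) and with miR11418-z (grey). Right, its mRNA in TMM-scaled CPM in each library (points) with the mean of each group of 3 (bar). The tags peak at 20 in ROC22 leaf first, while the mRNA is highest in ROC22 stem middle.

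The mRNA of the 37 unigenes covered a wide range. Medians over the 36 libraries, in the deposited FPKM (scaled to unigene length and library total), ran from 0.02 to 478 FPKM, with 32 unigenes at 1 FPKM or more, 21 at 10 or more and 4 at 100 or more. Their median of 13.1 FPKM (quartiles 2.44 and 44.4) lay near the 15.0 of the 627 other degradome unigenes and below the 30.6 of those paired with miR2673-z, while all 42119 unigenes kept in the fit of both tissues had a median of 2.5. Counts were present in all 36 libraries for 29 of the 37. c142111.graph_c0 had the highest median, 478 FPKM, with a range of 208 to 1246. c134077.graph_c0 had the lowest, 0.02 FPKM, with a range of 0 to 8.46, and its 809 leaf counts stood against 2 stem counts, both in 1 library.

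**Figure D3:**
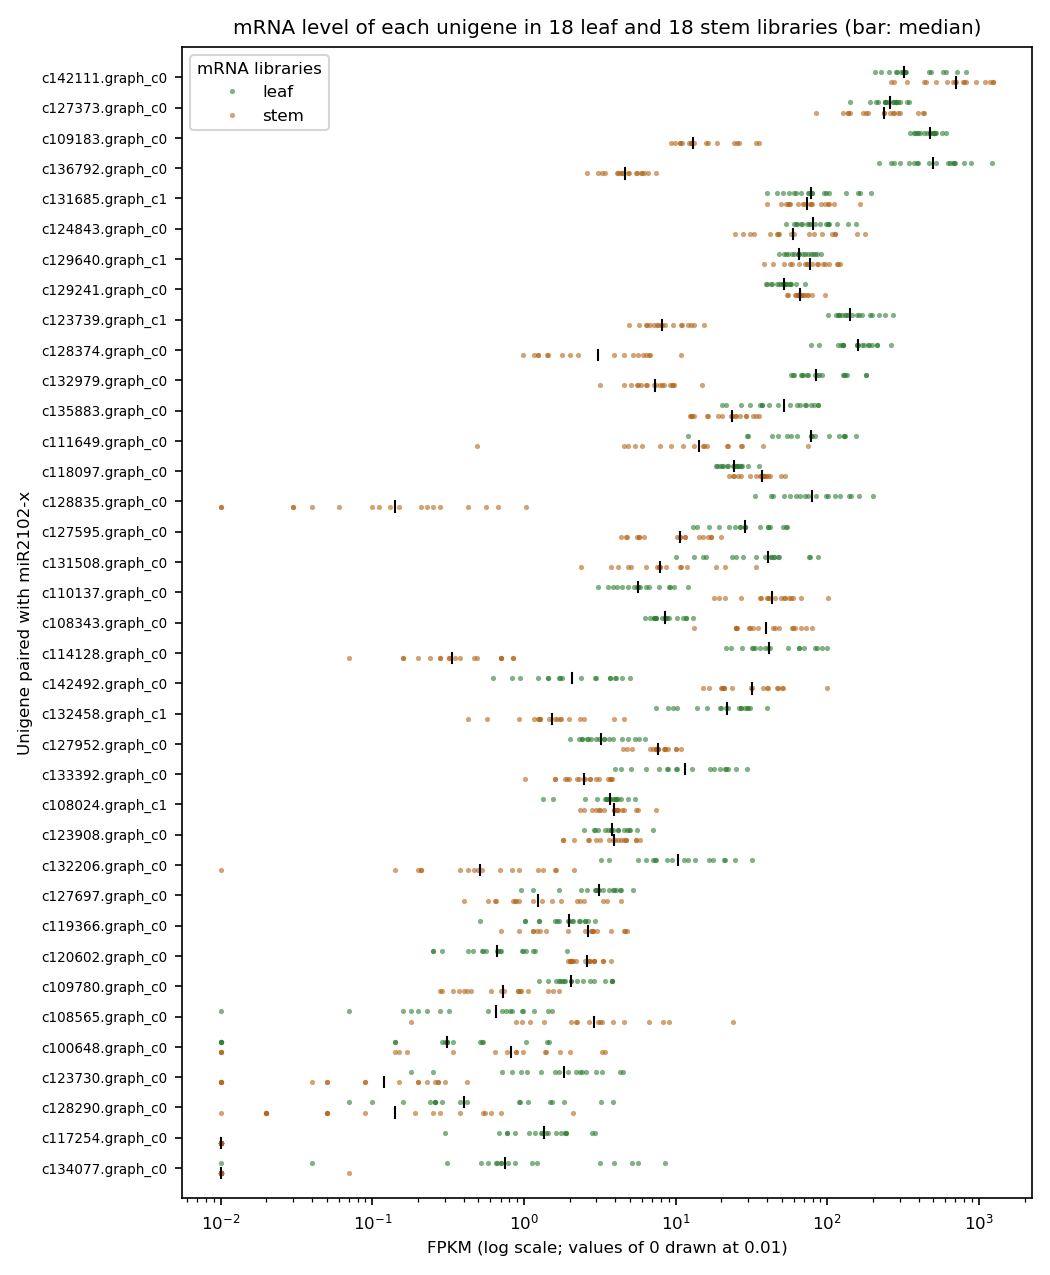
Deposited FPKM (log axis, values of 0 drawn at 0.01) of each of the 37 unigenes in 18 leaf libraries (green) and 18 stem libraries (brown), ordered by the median over all 36, with a bar at the median of each tissue. The clouds of leaf and stem separate for many unigenes, most often with leaf on the right, and c142111.graph_c0 is at the top with a median of 478 FPKM.

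Stem and leaf differed for 33 of the 37 unigenes (edgeR quasi-likelihood test, Benjamini-Hochberg adjusted p below 0.05, 18 libraries a tissue): 24 were lower in stem and 9 higher. Over all unigenes tested, 74.0% passed, 38.2% lower and 35.8% higher, so the number that passed was not far from the background, while the split by direction was not even. The median log2 difference of stem minus leaf was -1.31 for the 37 and -0.06 for all unigenes tested. Of the 715 other degradome unigenes 682 were tested, and 41.8% were lower and 44.7% higher. Of the 282 of them tested that had a tag in GT86-887's first leaf library, 51.8% were lower and 37.2% higher, with a median of -0.27. Of the 32 unigenes of miR2102-x with a tag there, 21 were lower and 7 higher. The part that the tag library has in the uneven split of the 37 was not tested. In bulk tissue, fewer cells of a type and less RNA per cell cannot be told apart.

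**Figure D4:**
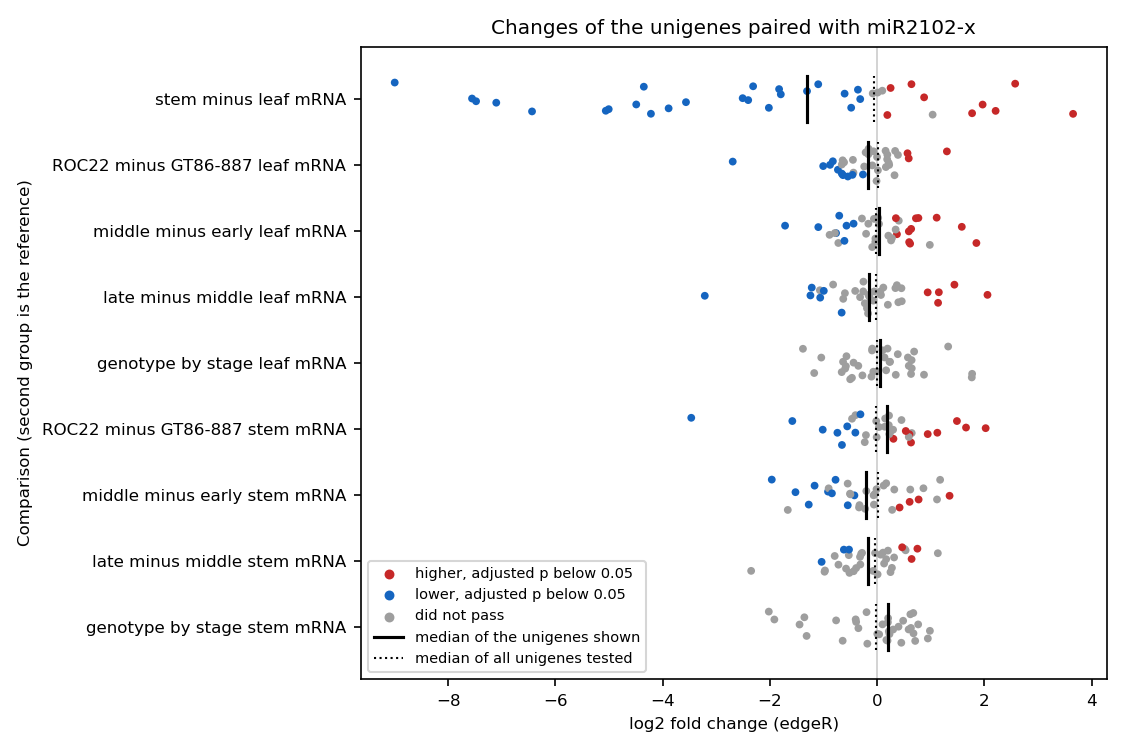
Fitted log2 fold change of each unigene paired with miR2102-x (points) in 9 comparisons of mRNA, red for higher and blue for lower at an adjusted p below 0.05, grey where it did not pass. A solid bar marks their median and a dotted bar that of all unigenes tested; genotype by stage is ROC22's late minus early change less GT86-887's change. The stem minus leaf points reach from -9.00 to 3.65 with a median of -1.31, a wider spread than in the other comparisons.

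The differences between tissues were large. With at least a 2-fold change required beside the adjusted p, 25 of the 37 passed, against 45.7% of all unigenes tested. By the fitted change, 12 of the 37 were lower in stem by 10-fold or more and 1 was higher by 10-fold or more, against 11.1% and 2.89% of all unigenes tested. In 14 the 18 stem and 18 leaf libraries did not overlap at all, 11 of them lower and 3 higher in stem, and the same was true of 17.7% of all unigenes tested.

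c109183.graph_c0 ranged from 11.7 to 48.5 CPM in stem (median 17.6) and from 520.1 to 953 CPM in leaf (median 710.4). Every leaf library was above every stem library, and the log2 difference was -5.06 ± 0.09 (SE, edgeR adjusted p = 8.9e-28). c136792.graph_c0, whose leaf median of 496 FPKM was the highest of the 37, ranged from 13.1 to 30.6 CPM in stem (median 20.7) and from 755.2 to 4089 CPM in leaf (median 1872), a log2 difference of -6.43 ± 0.12 (SE, edgeR adjusted p = 3.3e-27). Its leaf and stem libraries were also fully apart.

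The unigenes higher in stem moved less. c142492.graph_c0 ranged from 8.65 to 70.7 CPM in stem (median 19.8) and from 0.445 to 3.54 CPM in leaf (median 1.46), and rose by 3.65 ± 0.18 on the log2 scale (SE, edgeR adjusted p = 1.7e-17). All 5 of its tags nevertheless came from a leaf library. c110137.graph_c0 ranged from 14.6 to 68.6 CPM in stem (median 32.6) and from 2.46 to 11.2 CPM in leaf (median 4.86), and rose by 2.57 ± 0.13 (SE, edgeR adjusted p = 5.2e-17). Its 3 tags came from a stem library.

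A pair of unigenes with almost no stem mRNA was singled out after their values were seen. They were not the only such unigenes: c134077.graph_c0 had 2 stem counts, and c114128.graph_c0 had a stem median of 0.335 FPKM. c128835.graph_c0 had a median of 0.158 CPM in stem, with a highest value of 1.41, against 47.3 to 286.9 CPM in leaf (median 119.8), the largest fitted difference of the 37 at -9.00 ± 0.31 on the log2 scale (SE, edgeR adjusted p = 2.4e-21). c117254.graph_c0 had 399 counts in leaf, present in all 18 libraries, and 0 in the 18 stem libraries. Against a floor of 3 counts over the tissue it was at least 163-fold lower in stem.

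The call by tissue was set beside the tissue of the tags. Of the 31 unigenes with tags in leaf alone, 23 were lower in stem, 4 higher and 4 did not pass. Of the 6 with a tag in stem, 5 were higher in stem and 1, c109183.graph_c0, was lower. That exception had 1 tag in ROC22 stem second at stem levels of 11.7 to 48.5 CPM. Over all unigenes tested, 38.2% were lower in stem and 35.8% higher. For other degradome unigenes with a tag in GT86-887's first leaf library these shares were 51.8% and 37.2%. The other degradome unigenes were not split by the tissue of their tags. Whether the match of tags and calls belongs to the pairs of miR2102-x was thus not tested. With 6 unigenes on one side the comparison is a description of the lists.

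**Figure D5:**
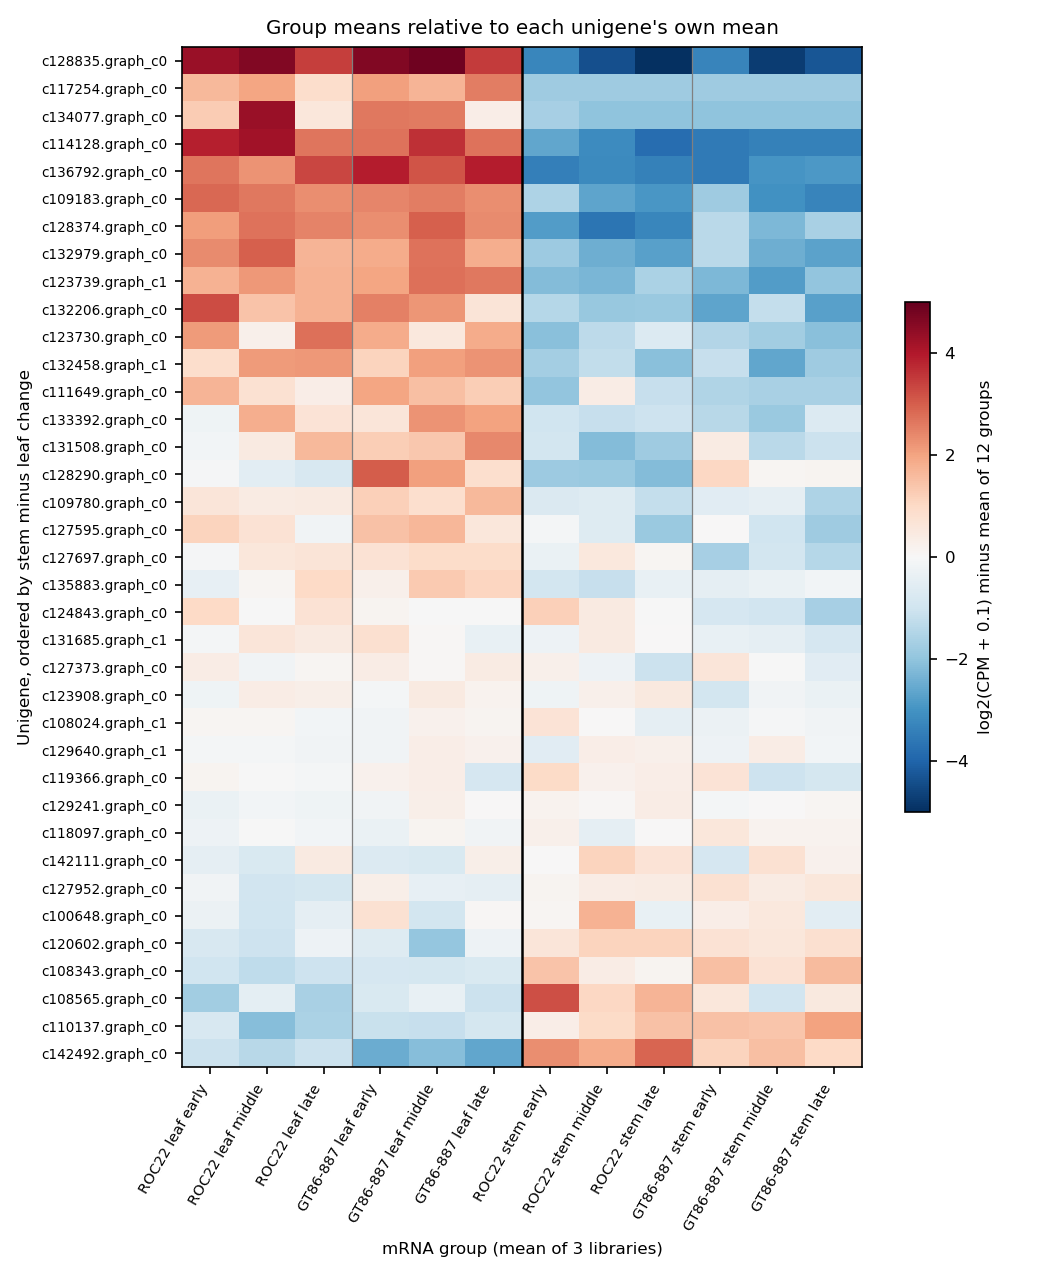
Mean log2(CPM + 0.1) of 3 libraries in each of the 12 mRNA groups, less the mean of the unigene's 12 groups, for the 37 unigenes (rows, ordered by stem minus leaf). A black line separates leaf from stem and grey lines separate the genotypes; the upper rows are red across all 6 leaf groups, and the lower rows are red in stem.

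The genotypes differed less than the tissues, with ROC22's levels set against GT86-887's levels. In leaf, 13 of the 36 unigenes tested passed, 3 higher and 10 lower in ROC22, where 51.5% of all unigenes tested passed (25.8% higher and 25.7% lower). Without GT86-887's leaf middle replicate 1, whose mean correlation with the other 2 libraries of its group was the lowest of the 36 at 0.896, 20 passed, 4 higher and 16 lower. The share of all unigenes that passed in that fit is not given here, so the 51.5% is not its background. In 0 of the 36 were the 9 libraries of each genotype fully apart, against 8.76% of all unigenes tested. In stem, 17 of the 34 tested passed, 9 higher and 8 lower in ROC22, with a background of 55.0% (26.6% higher and 28.4% lower), and the count was 18 without GT86-887's stem middle replicate 1, the other low library at 0.908. The libraries were fully apart for 2 of the 34 in stem, against 9.88% of all tested. With at least a 2-fold change required as well, 3 passed in leaf and 7 in stem, against 24.8% and 27.6% of all tested. Of the 33 tested in both tissues, 2 were higher in ROC22 in both, 4 were lower in both, 0 had opposite calls and 9 had no call in either. Over all 32184 unigenes tested in both, these shares were 14.6%, 15.5%, 3.84% and 27.5%.

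The same 4 unigenes had the smallest adjusted p of their direction in leaf and in stem. c128290.graph_c0 ranged in leaf from 0.131 to 0.629 CPM in ROC22 (median 0.358) and from 0.493 to 6.94 CPM in GT86-887's libraries (median 2.58), and in ROC22 was lower by 2.69 ± 0.31 on the log2 scale (SE, edgeR adjusted p = 2.8e-06). In stem its ROC22 libraries, at 0 to 0.163 CPM, all lay below GT86-887's, at 0.209 to 2.06 CPM, a log2 difference of -3.47 ± 0.51 (SE, edgeR adjusted p = 3.1e-05). It was a low unigene in both tissues, with 1 tag in GT86-887's first leaf library.

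c131508.graph_c0 was also lower in ROC22. In leaf it ranged from 18.9 to 82.9 CPM in ROC22 (median 38.3) and from 43.7 to 147.7 CPM in GT86-887's libraries (median 71.2), a log2 difference of -1.01 ± 0.12 (SE, edgeR adjusted p = 3.4e-06). In stem it ranged from 3.45 to 16.6 CPM in ROC22 (median 7.38) and from 9.41 to 45.8 CPM in GT86-887's libraries (median 12.2), a log2 difference of -1.02 ± 0.17 (SE, edgeR adjusted p = 0.00011). The genotypes overlapped in both tissues.

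Higher in ROC22 were c124843.graph_c0 and c142492.graph_c0. The stem libraries of c124843.graph_c0 were fully apart, at 47.8 to 143.4 CPM in ROC22 (median 69.1) and 14.3 to 30.7 CPM in GT86-887's libraries (median 24.4), a log2 difference of 1.66 ± 0.10 (SE, edgeR adjusted p = 4.6e-09). In leaf its ranges overlapped, at 40.4 to 124.5 CPM (median 78.0) and 39.7 to 66.3 CPM (median 50.9), and the difference was 0.57 ± 0.12 (SE, edgeR adjusted p = 0.00095). Whether the genotype difference of c124843.graph_c0 is larger in stem than in leaf was not tested.

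c142492.graph_c0 ranged in leaf from 1.24 to 3.54 CPM in ROC22 (median 2.73) and from 0.445 to 2.16 CPM in GT86-887's libraries (median 1.02), a log2 difference of 1.30 ± 0.27 (SE, edgeR adjusted p = 0.00068). In stem it ranged from 19.6 to 70.7 CPM in ROC22 (median 28.7) and from 8.65 to 30.5 CPM in GT86-887's libraries (median 12.1), a log2 difference of 1.12 ± 0.21 (SE, edgeR adjusted p = 0.00029). Its 5 tags were thus listed in GT86-887's leaf, where its mRNA was lowest.

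Across stages in leaf, 18 of the 36 tested passed from early to middle, 11 higher and 7 lower at the middle stage, where 30.2% of all unigenes tested passed (14.7% higher and 15.5% lower). From middle to late 11 passed, 5 higher and 6 lower, with a background of 21.0% (10.5% higher and 10.4% lower). Without GT86-887's leaf middle replicate 1 these counts were 19 and 14. With at least a 2-fold change required as well, 5 passed from early to middle and 8 from middle to late, against 12.3% and 8.08% of all tested. Both steps share the 6 middle libraries, so a deviation of those libraries moves them in opposite directions.

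c133392.graph_c0 was the clearest riser from early to middle in leaf. Its 6 early libraries ranged from 4.18 to 9.34 CPM (median 6.23) and its 6 middle libraries from 13.4 to 37.9 CPM (median 21.3), with no overlap, and it rose by 1.85 ± 0.20 on the log2 scale (SE, edgeR adjusted p = 7.1e-06). c135883.graph_c0 went from 35.5 to 79.7 CPM (median 51.5) to 57.2 to 164.2 CPM (median 83.8) and rose by 0.77 ± 0.13 (SE, edgeR adjusted p = 0.00035). Of those that fell, c123730.graph_c0 went from 1.95 to 3.19 CPM (median 2.67) to 0.214 to 1.37 CPM (median 0.919), with no overlap and a log2 difference of -1.72 ± 0.35 (SE, edgeR adjusted p = 0.0017). c132206.graph_c0 went from 7.80 to 23.5 CPM (median 15.4) to 4.17 to 12.2 CPM (median 5.76) and fell by 1.10 ± 0.24 (SE, edgeR adjusted p = 0.0023).

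From middle to late in leaf, c142111.graph_c0 went from 124.7 to 215.0 CPM (median 183.4) to 309.0 to 480.1 CPM (median 364.0), with no overlap, and rose by 1.15 ± 0.14 on the log2 scale (SE, edgeR adjusted p = 3.6e-05). c131508.graph_c0 went from 25.4 to 81.4 CPM (median 41.6) to 73.6 to 147.7 CPM (median 104.0) and rose by 1.14 ± 0.14 (SE, edgeR adjusted p = 4.7e-05). c132979.graph_c0 went the other way, from 323.6 to 482.8 CPM (median 380.3) at the middle stage to 167.7 to 230.3 CPM (median 181.1), with no overlap and a log2 difference of -1.06 ± 0.13 (SE, edgeR adjusted p = 3.5e-05). c127595.graph_c0 went from 25.1 to 63.1 CPM (median 33.8) to 12.7 to 29.1 CPM (median 18.1) and fell by 0.996 ± 0.138 (SE, edgeR adjusted p = 1.0e-04).

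In stem, 13 of the 34 tested passed from early to middle, 4 higher and 9 lower, with a background of 23.6% (11.8% in each direction). From middle to late 6 passed, 3 higher and 3 lower, with a background of 6.59% (3.69% higher and 2.91% lower). The second count rested on single libraries: it was 2 without ROC22 stem middle replicate 3, and 3 without ROC22 stem middle replicate 2, GT86-887's stem late replicate 1 or GT86-887's stem late replicate 3. It was 9 without GT86-887's stem middle replicate 1, without which the early to middle count was 12. With at least a 2-fold change required as well, 5 passed from early to middle and 1 from middle to late, against 9.39% and 2.38% of all tested.

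From early to middle in stem, c142111.graph_c0 went from 150.1 to 325.3 CPM (median 231.6) to 388.9 to 693.7 CPM (median 630.8), with no overlap, and rose by 1.35 ± 0.14 on the log2 scale (SE, edgeR adjusted p = 4.0e-06). c129640.graph_c1 went from 5.29 to 8.37 CPM (median 6.51) to 7.35 to 13.8 CPM (median 11.4) and rose by 0.77 ± 0.19 (SE, edgeR adjusted p = 0.0066). Both c131508.graph_c0 and c109183.graph_c0 fell with no overlap. The former went from 11.01 to 45.8 CPM (median 21.3) to 3.45 to 10.7 CPM (median 8.37), a log2 difference of -1.52 ± 0.21 (SE, edgeR adjusted p = 9.1e-05). The latter went from 25.2 to 48.5 CPM (median 37.5) to 12.4 to 22.5 CPM (median 16.6), a log2 difference of -1.17 ± 0.14 (SE, edgeR adjusted p = 2.1e-05).

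From middle to late in stem, c127595.graph_c0 went from 5.83 to 10.9 CPM (median 9.46) to 4.02 to 5.05 CPM (median 4.46), with no overlap, and fell by 1.04 ± 0.13 on the log2 scale (SE, edgeR adjusted p = 0.00080). It had also fallen from early to middle. c124843.graph_c0 fell by 0.62 ± 0.12 (SE, edgeR adjusted p = 0.0096), from 22.7 to 79.2 CPM (median 46.3) to 14.3 to 51.3 CPM (median 33.2). c123739.graph_c1 rose by 0.75 ± 0.17 (SE, edgeR adjusted p = 0.016), from 4.74 to 9.36 CPM (median 7.89) to 8.03 to 16.5 CPM (median 13.3). Its adjusted p was 0.050 without ROC22 stem middle replicate 3, and the call was lost. c135883.graph_c0 rose by 0.47 ± 0.13 (SE, edgeR adjusted p = 0.039), from 22.1 to 46.4 CPM (median 34.5) to 30.8 to 60.7 CPM (median 50.6), but its call rested on single libraries. The adjusted p was 0.051 to 0.11 without any 1 of the 3 ROC22 stem middle libraries or of GT86-887's 3 stem late libraries, replicate 1 or 3 of GT86-887's stem early, replicate 2 or 3 of GT86-887's stem middle, replicate 3 of ROC22 stem early or replicate 2 of ROC22 stem late.

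The change from early to late was compared between the genotypes as ROC22's change less GT86-887's. In leaf, 0 of 36 unigenes passed the edgeR test of this difference, against 0.871% of all unigenes tested (0.438% higher and 0.433% lower), and 7 had an unadjusted p below 0.05. DESeq2 called 1, c131685.graph_c1, against 3.14% of all tested. edgeR without a filter on low counts called 3, c114128.graph_c0, c131685.graph_c1 and c136792.graph_c0, against 2.09% of all tested. In stem, 0 of 34 passed, against 0.138% of all tested (0.0939% higher and 0.0442% lower), and 4 had an unadjusted p below 0.05. The share of all unigenes below that unadjusted p is not given here for either tissue. The 7 in leaf and the 4 in stem thus cannot be called more or fewer than the background. DESeq2 called 1 in stem, c108024.graph_c1 (-1.29 ± 0.38 on the log2 scale, adjusted p = 0.0451), against 1.66% of all tested, and edgeR without the filter called 0, against 0.589%.

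c131685.graph_c1 had the smallest adjusted p of this difference in leaf, and its call depended on the fit. In GT86-887's leaf its mean was 152 ± 79.1 CPM (SD, n = 3) early and 66.5 ± 27.5 late, and in ROC22 leaf it was 81.1 ± 8.93 early and 120 ± 50.9 late. The log2 difference of the changes was 1.77 ± 0.55 (SE, edgeR adjusted p = 0.15), 1.77 ± 0.56 by DESeq2 (adjusted p = 0.0496) and 1.77 ± 0.24 by edgeR without the filter (adjusted p = 1.9e-10). The estimate was thus near the same in each fit. The edgeR SE, which is derived from the test statistic, was smaller without the filter. The DESeq2 SE is a fitted one, so the SE of the tools are not the same quantity.

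c142111.graph_c0 combined the most tags with the highest median FPKM of the set. In leaf its mean was 219 ± 12.9 CPM (SD, n = 3) in ROC22 early, 174 ± 42.6 in ROC22 middle and 403 ± 67.1 in ROC22 late. GT86-887's leaf had 185 ± 20.9 CPM early, 176 ± 37.4 middle and 359.7 ± 75.6 late, and the genotype difference over the leaf libraries was 0.16 ± 0.11 on the log2 scale and did not pass (edgeR adjusted p = 0.27). In stem its mean was 299 ± 25.1 CPM in ROC22 early, 646 ± 26.7 in ROC22 middle and 471 ± 106 in ROC22 late, and 165 ± 19.9, 497 ± 171 and 341 ± 21.7 CPM in GT86-887's groups at the same stages. The stem level was higher in ROC22 by 0.53 ± 0.11 on the log2 scale (SE, edgeR adjusted p = 0.00062). Its tags, 20 in ROC22 leaf first against 1 in GT86-887's leaf first, thus differed between libraries of groups whose early leaf mRNA was 219 and 185 CPM. Stem was higher than leaf by 0.64 ± 0.08 (SE, edgeR adjusted p = 6.5e-08), while 30 of its 41 tags were in leaf.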

How the data were processed

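Per the file headers, the authors deposited a whole-number count and an FPKM value for each unigene and mRNA library, a count and a TPM value for each miRNA entry and small RNA library, and the number of tags for each miRNA and unigene pair in 8 degradome libraries. The TPM values deposited by the authors were not used. The degradome columns headed as normalised repeat the raw tags in every cell and were not used. The assembler, aligner, target caller and any filter are not named in the labels or headers. Per the labels' protocols, RNA was extracted with Trizol.

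The counts deposited by the authors summed to between 17970015 and 24929466 per mRNA library. They were fitted with edgeR 4.0.16 in R 4.3.3 (TMM scaling, filterByExpr, 1 coefficient per group, quasi-likelihood test, Benjamini-Hochberg adjustment over all unigenes tested, threshold 0.05), leaf and stem apart and, for stem minus leaf, together. All 37 unigenes passed the filter of the joint fit. c100648.graph_c0 failed it in leaf, and c117254.graph_c0, c123730.graph_c0 and c134077.graph_c0 failed it in stem; these had no test there. The SE given with an edgeR result is the size of its log2 difference divided by the square root of the F statistic of the test. It is not a standard error reported by the fit. CPM values are counts scaled by the TMM library sizes of the joint fit. Levels of different unigenes were compared in FPKM, except for those with and without a tag in GT86-887's first leaf library. These were set side by side in CPM, which is not scaled to unigene length, with FPKM added for some of them. DESeq2 1.42.0, RLE scaling, no filter, a 2-fold threshold, a replicate block and libraries left out were the alternatives.

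The members and lists were chosen with earlier results of these data known. Unigenes were named by these rules: the 5 with the most tags and those with tags in 4 or more libraries, up to 2 per direction with the smallest adjusted p in each comparison, the highest and lowest median FPKM, and counts of 5 or fewer; other choices are stated as such.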

Additional observations from a re-analysis of the deposited data

How the results depend on the processing

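With at least a 2-fold change required as well, 3 unigenes passed in ROC22 minus GT86-887's leaf (13 without it; 24.8% of all unigenes tested passed with it), 7 in ROC22 minus GT86-887's stem (17; 27.6%), 5 in middle minus early leaf (18; 12.3%), 5 in middle minus early stem (13; 9.39%) and 1 in late minus middle stem (6; 2.38%). For genotype by stage in leaf, where edgeR called 0, DESeq2 called 1 and edgeR without a filter on low counts called 3 (c114128.graph_c0, c131685.graph_c1 and c136792.graph_c0); in stem DESeq2 called 1. The cause of these differences between tools and filters was not tested. With 1 library left out at a time, the count that passed was 13 to 20 for genotype in leaf, 16 to 18 for genotype in stem, 15 to 19 and 10 to 14 for middle minus early and late minus middle in leaf, 10 to 14 and 2 to 9 for the same steps in stem, and 0 for genotype by stage in both tissues; with all libraries of 1 replicate number left out, stem minus leaf gave 31 to 34. Shares of all unigenes in the fits with libraries left out are not given here. Of the 28 named results with a test, 26 kept their direction and an adjusted p below 0.05 under every alternative fit, and 0 reversed. They had been chosen for the smallest adjusted p in these data, so this does not carry over to the other calls. The 2-fold threshold was applied to the counts alone and not to these named results, some of which changed by less than 2-fold. The exceptions were c135883.graph_c0 and c123739.graph_c1 in late minus middle stem.

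Same-numbered libraries were treated as unpaired. A correlation of deviations over 0.1 was found in 1 of 45 same-numbered pairs in leaf and 1 of 45 in stem. Over both tissues it was found in 6 of 198. The highest was 0.183 in leaf, 0.121 in stem and 0.503 over both tissues. Of the libraries, 11 of 18 in leaf, 3 of 18 in stem and 16 of all 36 correlated best on average with those of their own number. The 198 pooled pairs of all groups. The 0.503 lies above the highest value within either tissue, so it was between a leaf and a stem library of the same number. The genotype and stage of that pair are not given here. GT86-887's middle replicate 1 had the lowest mean correlation with its group in leaf (0.896) and in stem (0.908). Leaf and stem libraries of the same genotype, stage and number were not looked at apart, so whether they are paired was not tested. The stem minus leaf test treats them as separate. With the replicate block, 33 passed in stem minus leaf, 13, 18 and 11 in the leaf comparisons of genotype, middle minus early and late minus middle, 17, 13 and 4 in those of stem, and 0 for genotype by stage; c135883.graph_c0 in late minus middle stem had an adjusted p of 0.063.

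miR2102-x failed the filter in every small RNA fit, so DESeq2, the block and left-out libraries were not run for it; the fits without a filter gave an adjusted p of 0.9998 and no usable estimate, and no value in stem, where its count was 0. The tags have neither replicates nor a given depth, and 1 tag is the smallest number the degradome table can hold.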
